A study of Mus musculus with 16 samples.

Results

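The effect of BayK8644 after 24 h was measured in a mouse line of pancreatic beta cells, R7T1, by setting the 2 arrays with the compound against the 2 arrays without it. The arrays with the compound came from cells given BayK8644 alone and from cells given BayK8644 with Exendin-4 (the combination). Those without it came from cells given Exendin-4 and from cells given the DMSO vehicle. These 4 arrays were chosen by treatment and time from the 16 of the series, which holds the same 4 treatments at 0.5, 2, 6 and 24 h with 1 array for each treatment and time. A gene was counted as changed only where BayK8644 minus DMSO and the combination minus Exendin-4 had the same sign and the difference passed an adjusted p of 0.05. That p is limma's, from 1 fit of all 16 arrays, with Benjamini-Hochberg adjustment over all genes tested. The title of the series concerns small molecules that induce beta-cell expansion. The labels list the compound as BayK8644(2a) without explaining the 2a, and it was taken to be BayK8644. The sources used here gave no dose, medium or glucose level. R7T1 cells are a reversibly transformed line, in which a viral oncogene under a tetracycline-controlled promoter drives growth, and the labels do not say whether it was on in these cultures. Nothing in the labels says whether the RNA of each array came from a culture of its own, so the p-values reflect the scatter of these arrays alone, and that scatter may be technical.

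BayK8644 is a dihydropyridine that holds L-type voltage-gated calcium channels open. In beta cells these channels open when glucose metabolism closes ATP-sensitive potassium channels and the membrane depolarises, and the calcium that enters triggers insulin secretion. The same calcium signal activates calmodulin-dependent kinases, calcineurin and the Ras-ERK cascade, which switch on activity-dependent genes through factors such as CREB, SRF and NFAT. Exendin-4 is a peptide agonist of the GLP-1 receptor, which raises cyclic AMP.

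All levels below are log2 GCRMA intensities, and all differences are log2 differences of BayK8644 present minus absent at 24 h with limma's standard error (SE) unless another time is named. Values under a log2 level of 4 lie near the floor of the method. On the 4 arrays the median intensity lay between 10.8 and 11.6, between 46.9 and 47.7% of probe sets reached log2 4, and the correlation of levels between pairs of arrays across genes lay between 0.989 and 0.996. For the control probe sets of Actb, which gauge RNA integrity, the 3' level exceeded the 5' level by a log2 difference of 0.66 with BayK8644 and 0.77 with the combination, against 0.66 with DMSO and 0.69 with Exendin-4. All 10 measured beta-cell markers were above log2 4 on these arrays. Ins2, an insulin gene, had log2 levels of 15.68 with BayK8644 alone and 15.79 with the combination, against 15.67 with DMSO and 15.78 with Exendin-4. The 4 endothelial and 4 leukocyte markers, and the 1 PP-cell marker, were under log2 4 on every array. Of the 7 mesenchymal markers Vim alone was above that level. Of 5 acinar markers Cela1 was above it and of 5 duct markers Krt7. In these bulk samples a different share of cells of a type and a different amount of RNA per cell cannot be told apart.

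Of the 10610 genes tested, 317 were higher with BayK8644 (2.99%) and 225 were lower (2.12%). The median called rise was 0.57 and the median called fall -0.45 on the log2 scale, against a median of 0.01 over all genes tested. Rises reached further than falls: 61 rises and 9 falls were of at least 1 log2 unit. Both BayK8644 arrays lay above both arrays without it for all 317 genes called higher, as they did for 23.5% of all genes tested. For 224 of the 225 genes called lower both lay below, which held for 22.5% of all genes tested, and St3gal1 was the exception. At 58.0% of all genes tested the differences with and without Exendin-4 had the same sign, and across genes they correlated with a Pearson r of 0.40. The 2 differences rest on separate arrays, and genes are not independent replicates. At an unadjusted p under 0.05 there were 2386 genes.

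The counts depended on the error and on which pair of arrays was used. In limma's fit the error was pooled over the 4 times, and the residual root mean square was 0.0509 at 0.5 h and 0.0919 at 24 h. With a weight for each time 92 genes were higher and 27 lower, and with the 24 h arrays alone 65 and 13. With 1 of the 24 h arrays left out, the difference comes from the single pair that remains and its error from the earlier times, so these 4 fits hold 2 single-pair differences. From BayK8644 minus DMSO alone, 64 genes were higher and 52 lower where the combination array was left out, and 70 and 56 where the Exendin-4 array was. From the combination minus Exendin-4 alone, 1083 were higher and 384 lower without the BayK8644 array, and 1081 and 381 without the DMSO array. The difference of the second pair was spread more widely over genes, with a standard deviation of 0.36 against 0.27 for the first pair.

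**Figure D1:**
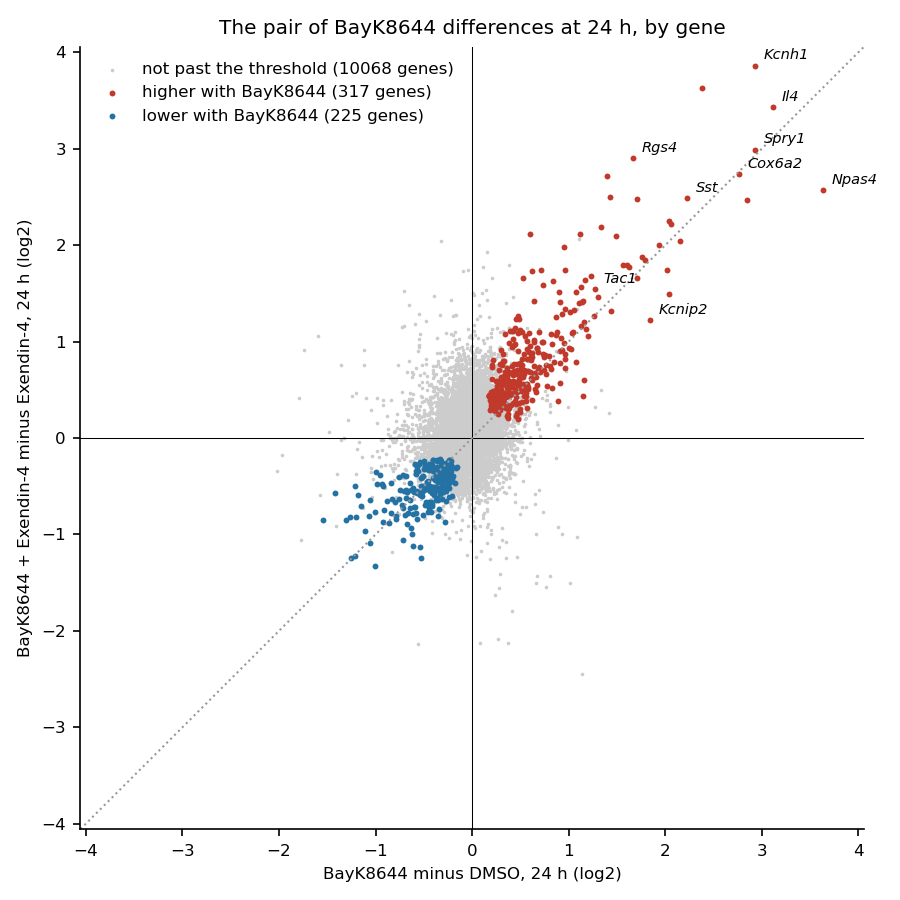
Each point is 1 of 10610 genes, with the log2 difference BayK8644 minus DMSO at 24 h on the x axis and that of the combination minus Exendin-4 on the y axis; the dotted line marks equal differences. The 317 genes called higher (red) and the 225 called lower (blue) lie in the quadrants where both differences have 1 sign.

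Kcnh1, which encodes a voltage-gated potassium channel of the ether-a-go-go family, headed the rises by log2 difference. Its log2 levels were 5.92 with BayK8644 alone and 6.86 with the combination, against 2.99 with DMSO and 2.99 with Exendin-4. Both arrays without BayK8644 were near the floor, so the size of the log2 difference, 3.40 ± 0.27 (limma, adjusted p = 0.000285), depends on the floor. With values under 4 set to 4 the ratio was 5.24-fold, and the log2 difference of 2.39 was below those of Npas4, Il4, Tmem212, Spry1 and Cox6a2. Il4, the gene of interleukin 4, a cytokine better known from T cells, had log2 levels of 6.87 and 7.21 on the BayK8644 and combination arrays, against 3.75 and 3.78 on the DMSO and Exendin-4 arrays. It rose by 3.27 ± 0.25 on the log2 scale (adjusted p = 0.000218, 8.21-fold with values under 4 set to 4). Neither gene had overlapping sides, nor had any of the 317 genes called higher. Cox6a2, the heart and muscle isoform of a cytochrome c oxidase subunit, was above log2 4 on all 4 of these arrays. It had log2 levels of 7.10 with BayK8644 alone and 7.06 with the combination, against 4.33 with DMSO and 4.32 with Exendin-4, and rose by 2.75 ± 0.14 (6.74-fold, adjusted p = 3.29e-05). The arrays within each side of this comparison differed by less than 0.05.

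Other genes among the 25 largest rises had varied functions. Tmem212, a transmembrane protein gene, had log2 levels of 6.92 and 8.25 on the BayK8644 and combination arrays, against 4.53 and 4.62 on the DMSO and Exendin-4 arrays, a rise of 3.01 ± 0.34. Sparcl1, a secreted matricellular protein, rose by 2.14 ± 0.25 and Rerg, a small Ras-like GTPase, by 2.14 ± 0.36. Rerg was under log2 4 on both arrays without BayK8644 (3.98 with DMSO and 3.72 with Exendin-4). For Sparcl1 the Exendin-4 array was just under it (3.97). Qpct, whose enzyme closes the amino end of peptides into pyroglutamate, had log2 levels of 4.89 with BayK8644 alone and 5.54 with the combination, against 3.18 with DMSO and 3.06 with Exendin-4, with both arrays without BayK8644 under 4. With those set to 4 its ratio was 2.32-fold. Cd274, the gene of the immune checkpoint ligand PD-L1, rose by 1.96 ± 0.25 and Gzmm, a granule protease of killer lymphocytes, by 1.80 ± 0.17. Both of them, and Cmtm8 (1.82 ± 0.18), also had both arrays without BayK8644 under log2 4. With values under 4 set to 4 the ratio of Gzmm was 1.43-fold, and that of Cmtm8 was 1.11-fold and no longer passed (limma, adjusted p = 0.446). Gzmm and Qpct reached log2 4 only on the BayK8644 and combination arrays of 24 h. They were thus tested only because they were high there, and their calls are no independent evidence. Kcnh1, Etv4, Cd274 and Cmtm8 also reached log2 4 only on arrays with BayK8644, so the same limit holds for them. It holds as well where such a call passed with a single pair. S100a10, the partner of annexin A2, rose by 1.76 ± 0.24, Rtp4, a receptor transport protein, by 1.70 ± 0.16, Ptges3l by 1.70 ± 0.22 and Aass, an enzyme of lysine degradation, by 1.68 ± 0.21. Epas1, which encodes the hypoxia-inducible factor HIF-2 alpha, rose by 1.77 ± 0.17, and its log2 levels without BayK8644 were under 4. Of the 25 largest rises, 19 also passed with either pair alone, that is, in all 4 fits that left out 1 of these arrays. Rgs4, Rerg, Fosb, Cd274, S100a10 and Ptges3l did not, and their highest adjusted p lay between 0.0501 and 0.171.

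**Figure D2:**
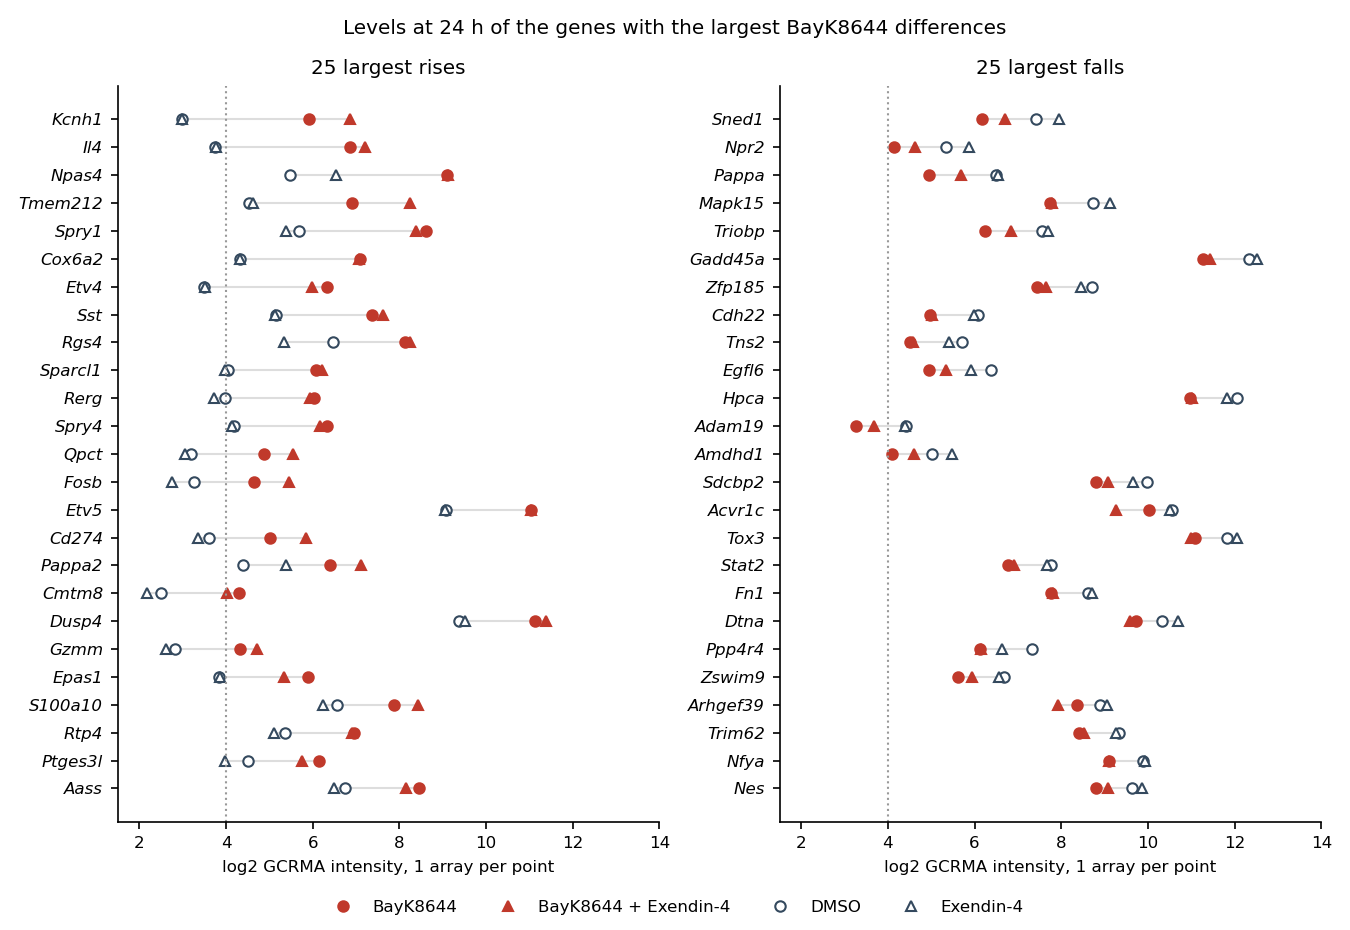
Points give the log2 GCRMA level of a gene on single 24 h arrays (filled, with BayK8644; open, without it) for the 25 largest called rises (left) and falls (right), and the dotted line marks log2 4. The filled points lie right of the open ones for all 25 rises and left of them for all 25 falls. The same holds for all 317 genes called higher and 224 of the 225 called lower. The open points of Kcnh1, Il4 and Etv4 lie left of the dotted line.

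Falls were smaller than rises. Sned1, a matrix glycoprotein gene, had log2 levels of 6.17 and 6.70 on the BayK8644 and combination arrays, against 7.43 and 7.94 on the DMSO and Exendin-4 arrays, a fall of 1.25 ± 0.20 (adjusted p = 0.0103). Gadd45a, a growth arrest gene induced by DNA damage, had log2 levels of 11.27 with BayK8644 alone and 11.43 with the combination, against 12.33 with DMSO and 12.52 with Exendin-4, and fell by 1.07 ± 0.07 (adjusted p = 0.000145). The arrays of each side lay within 0.20 of each other. Mapk15, an atypical MAP kinase, fell by 1.16 ± 0.12. Triobp, an actin-binding protein gene, fell by 1.08 ± 0.19, Zfp185, a LIM-domain protein gene, by 1.04 ± 0.12 and Tns2, which encodes a tensin, by 1.01 ± 0.21. Hpca, which encodes the neuronal calcium sensor hippocalcin, had log2 levels of 10.98 and 11.02 on the BayK8644 and combination arrays, against 12.04 and 11.83 on the DMSO and Exendin-4 arrays, a fall of 0.94 ± 0.17. Acvr1c, which encodes the activin receptor ALK7, fell by 0.89 ± 0.15, Tox3, a chromatin protein gene, by 0.89 ± 0.10, Stat2, a factor of interferon signalling, by 0.88 ± 0.13 and Nes, the gene of the intermediate filament nestin, by 0.81 ± 0.10. Egfl6, a secreted protein gene, differed by -1.0, Amdhd1, of histidine breakdown, by -0.90, and Sdcbp2, the gene of the scaffold syntenin-2, by -0.89. Dtna, the gene of alpha-dystrobrevin, fell by 0.87, Ppp4r4, a phosphatase subunit gene, by 0.85, and Zswim9 by 0.85. Arhgef39, Trim62, a ubiquitin ligase gene, and Nfya, which encodes a subunit of the factor NF-Y, fell by 0.83, 0.83 and 0.82. With the mean of a gene's probe sets Egfl6, Amdhd1, Acvr1c, Trim62, Nfya and Nes did not pass. With either pair alone 9 of the 25 largest falls still passed, among them Gadd45a, Mapk15, Npr2, Tox3 and Nes. The other 16, Sned1 among them, were lost, with a highest adjusted p between 0.0564 and 0.211.

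Genes were also grouped into 25 lists by textbook roles. The lists were drawn up with earlier results of these data known and share members, so their counts are descriptions and no list was tested. The share of all genes tested that rose (2.99%) and fell (2.12%) stands as the background for each. A call is named as lost where its adjusted p was 0.05 or more in at least 1 of the 4 fits without 1 of the 24 h arrays, and the highest of those p-values is given. A call that passed in all 4 is said to have passed with either pair alone. These are differences of 1 array from 1 array, with the spread taken from the earlier times. Of 170 genes followed in this way, leaving out the combination array lost 116 and leaving out the Exendin-4 array lost 113, against 35 without the BayK8644 array and 36 without the DMSO array.

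**Figure D3:**
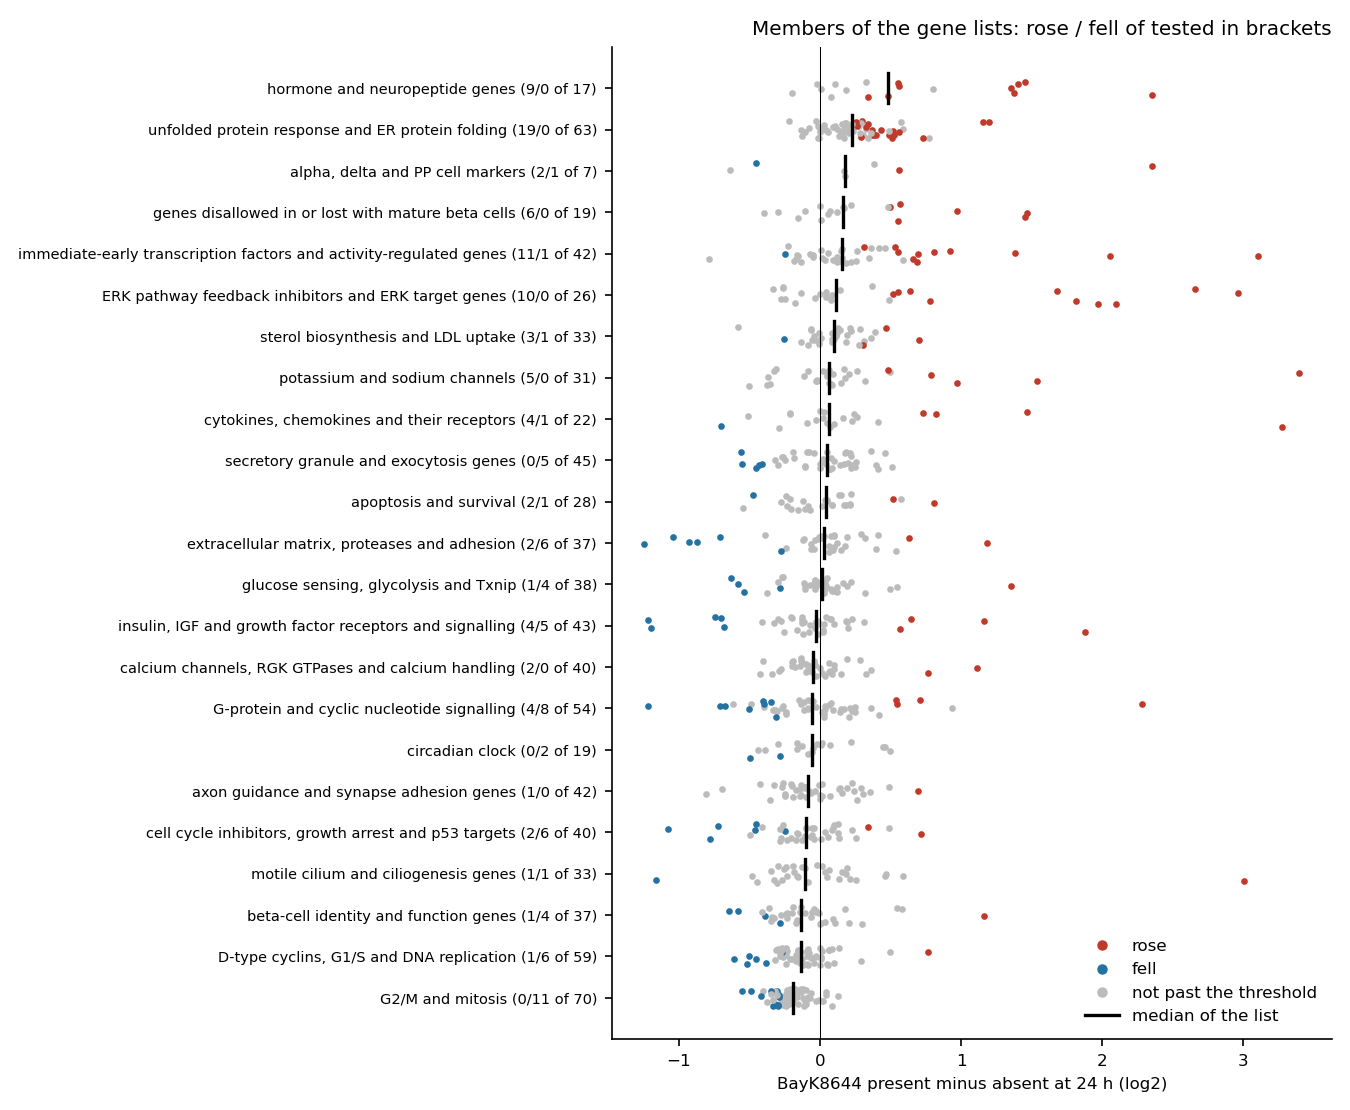
Each point is a tested gene of a list at its log2 difference of BayK8644 present minus absent at 24 h, coloured where it rose or fell, with the list's median as a black bar and the numbers that rose, fell and were tested in brackets. The hormone and neuropeptide list has the highest median (0.48) and the G2/M and mitosis list the lowest (-0.19); lists with fewer than 7 tested genes are not drawn.

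The feedback inhibitors and targets of the ERK cascade held 10 genes that rose and 0 that fell, of 26 tested, with a median difference of 0.11. The Sprouty genes Spry1, Spry4 and Spry2 encode inhibitors that act between growth factor receptors and Ras-ERK. Spry1 had log2 levels of 8.61 with BayK8644 alone and 8.37 with the combination, against 5.68 with DMSO and 5.38 with Exendin-4, a 7.8-fold rise (adjusted p = 3.29e-05). Spry4 had log2 levels of 6.34 and 6.17 on the BayK8644 and combination arrays, against 4.18 and 4.13 on the DMSO and Exendin-4 arrays, and rose by 2.10 ± 0.14. Spry2 rose by 0.78 ± 0.13. The nuclear phosphatases that remove the activating phosphates of ERK followed. Dusp4 had log2 levels of 11.14 with BayK8644 alone and 11.39 with the combination, against 9.38 with DMSO and 9.51 with Exendin-4, a rise of 1.82 ± 0.09, and Dusp5 rose by 0.63 ± 0.07. Dusp6, the cytoplasmic ERK phosphatase, had log2 levels of 10.54 and 10.67 on the BayK8644 and combination arrays, against 8.98 and 8.88 on the DMSO and Exendin-4 arrays, and rose by 1.68 ± 0.09. In all 6 genes both arrays with BayK8644 stood above both arrays without it, as in all 317 genes called higher. The ETS factors Etv4 and Etv5, which are transcribed in response to ERK, rose by 2.66 ± 0.35 and 1.97 ± 0.11. Etv5 had log2 levels of 11.03 and 11.04 on the BayK8644 and combination arrays, against 9.09 and 9.04 on the DMSO and Exendin-4 arrays, and Etv4 of 6.34 and 5.99 with BayK8644 (alone and combined) and 3.49 and 3.52 without it (DMSO and Exendin-4). Without BayK8644 Etv4 was near the floor, and with values under 4 set to 4 its ratio was 4.47-fold. Spred2, a Sprouty-related inhibitor, rose by 0.51 ± 0.10 and Hbegf, an EGF receptor ligand, by 0.55 ± 0.12. With the mean of its probe sets the difference of Spred2 was 0.01 and did not pass (limma, adjusted p = 0.991). Other members did not pass, among them Dusp1, Dusp7 and Spred1: their differences were -0.03, 0.37 and 0.08. With either pair alone 7 of the 10 still passed, and Spry2, Spred2 and Hbegf were lost (highest adjusted p 0.0929, 0.0929 and 0.238).

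Of 42 immediate-early and activity-regulated genes tested, 11 rose and 1 fell, with a median of 0.15. Npas4, a factor that neurons and beta cells induce on calcium entry, had log2 levels of 9.11 with BayK8644 alone and 9.11 with the combination, against 5.47 with DMSO and 6.54 with Exendin-4. It rose by 3.11 ± 0.28 (adjusted p = 0.000528), and the arrays with BayK8644 were alike while Exendin-4 alone stood above DMSO. Fosb, a partner of Jun in the AP-1 dimer, had log2 levels of 4.65 and 5.46 on the BayK8644 and combination arrays, against 3.25 and 2.75 on the DMSO and Exendin-4 arrays, with the arrays without BayK8644 under 4. With values under 4 set to 4 its log2 difference no longer passed (limma, adjusted p = 0.0812). Nr4a1, an orphan nuclear receptor gene, had log2 levels of 10.68 with BayK8644 alone and 10.98 with the combination, against 9.37 with DMSO and 9.52 with Exendin-4, a rise of 1.38 ± 0.08. Smaller rises were those of the zinc-finger factor Egr1 (0.92 ± 0.13), the inhibitors of helix-loop-helix factors Id1 (0.81 ± 0.09) and Id2 (0.31 ± 0.07), and the pseudokinase gene Trib1 (0.70 ± 0.12). The AP-1 family members Maff, Junb and Fos rose by 0.69, 0.66 and 0.56, and Ier2 by 0.53. Btg1, an antiproliferative gene, fell by 0.25 ± 0.06. The early genes Arc, Dusp1, Nr4a2 and Crem did not pass, with differences of -0.07, -0.03, -0.05 and 0.04. Npas4, Nr4a1 and Id1 passed with either pair alone. The other 8 that rose and Btg1 were lost, with a highest adjusted p between 0.0728 and 0.256.

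Among 40 tested genes of calcium channels and calcium handling, 2 rose and 0 fell, with a median of -0.05. Both that rose, Rem2 and Gem, encode small GTPases of the RGK family, which bind the beta subunit of voltage-gated calcium channels and lower their current. Rem2 had log2 levels of 9.63 with BayK8644 alone and 9.72 with the combination, against 8.70 with DMSO and 8.43 with Exendin-4, a rise of 1.11 ± 0.12 (2.16-fold, adjusted p = 0.00136). Gem had log2 levels of 11.41 and 11.20 on the BayK8644 and combination arrays, against 10.65 and 10.44 on the DMSO and Exendin-4 arrays, a rise of 0.76 ± 0.07 (adjusted p = 0.000539). Both passed with either pair alone, and the groups did not overlap, as in all 317 genes called higher. The pore-forming subunits of L-type channels did not pass: Cacna1c had log2 levels of 10.16 with BayK8644 alone and 10.01 with the combination, against 10.26 with DMSO and 10.50 with Exendin-4, and Cacna1d had a difference of -0.20. Rcan1, a calcineurin inhibitor gene and target, had a difference of 0.10 and did not pass.

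Of 31 potassium and sodium channel genes tested, 5 rose and 0 fell, with a median of 0.07. Kcnh1 was the first of these. Kcnip2, an accessory subunit of A-type potassium channels, had log2 levels of 5.24 with BayK8644 alone and 4.45 with the combination, against 3.39 with DMSO and 3.22 with Exendin-4, both arrays without BayK8644 being under 4, and rose by 1.54 ± 0.16. With values under 4 set to 4 the ratio was 1.79-fold (log2 difference 0.84, adjusted p = 0.0257). Kcnip1, of the same family, rose by 0.48 ± 0.09. Kcnn2, which encodes a small-conductance calcium-activated potassium channel, had log2 levels of 8.87 and 8.73 on the BayK8644 and combination arrays, against 7.86 and 7.80 on the DMSO and Exendin-4 arrays, a rise of 0.97 ± 0.12. Scn1a, a voltage-gated sodium channel gene, rose by 0.79 ± 0.17. The subunits of the ATP-sensitive potassium channel, Kcnj11 and Abcc8, had differences of 0.18 and -0.03 and did not pass. Scn1a and Kcnip1 were lost with at least 1 pair alone (highest adjusted p 0.12 and 0.196), and the other 3 were not.

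Of 17 hormone and neuropeptide genes tested 9 rose and 0 fell, with a median of 0.48. Sst, the gene of somatostatin, which delta cells make in the islet and which inhibits insulin release, had log2 levels of 7.37 with BayK8644 alone and 7.61 with the combination, against 5.14 with DMSO and 5.13 with Exendin-4. It rose by 2.36 ± 0.18 (5.12-fold, adjusted p = 0.000218). Gast, which encodes gastrin, a peptide of the fetal pancreas and adult stomach, had log2 levels of 11.36 and 11.72 on the BayK8644 and combination arrays, against 10.13 and 10.04 on the DMSO and Exendin-4 arrays, a rise of 1.46 ± 0.10 (adjusted p = 0.000173). Vgf, the gene of a granin-like precursor of several peptides, had log2 levels of 11.38 with BayK8644 alone and 11.53 with the combination, against 9.95 with DMSO and 10.21 with Exendin-4, a rise of 1.37 ± 0.08 (adjusted p = 7.36e-05). In these 3 genes the BayK8644 and combination arrays stood clear of the others by over 1. Cck, which encodes cholecystokinin, had log2 levels of 15.12 and 15.20 on the BayK8644 and combination arrays, against 14.56 and 14.65 on the DMSO and Exendin-4 arrays, a rise of 0.56 ± 0.05. Sct, the secretin gene, rose by 0.48 ± 0.06, and Nucb2, the precursor of nesfatin, by 0.34 ± 0.06. Tac1, which encodes substance P, had log2 levels of 6.81 with BayK8644 alone and 8.25 with the combination, against 5.54 with DMSO and 6.70 with Exendin-4. Its combination array was highest and its BayK8644 array stood only 0.11 above the Exendin-4 array, so the sides barely separated in the rise of 1.41 ± 0.30. Adm, the adrenomedullin gene, had log2 levels of 7.51 and 8.27 with BayK8644 (alone and combined) and 6.91 and 6.16 without it (DMSO and Exendin-4), a rise of 1.36 ± 0.31. It rested mainly on the combination, whose difference from Exendin-4 was 2.12, against 0.60 for BayK8644 minus DMSO. Gcg, the glucagon gene of alpha cells, had log2 levels of 9.58 and 9.72 on the BayK8644 and combination arrays, against 9.08 and 9.10 on the DMSO and Exendin-4 arrays, a rise of 0.56 ± 0.10. Ins2, Iapp and Npy did not pass, with differences of 0.01, 0.10 and -0.20. Sst, Gast, Vgf, Cck and Sct passed with either pair alone, while Tac1, Adm, Gcg and Nucb2 were lost (highest adjusted p 0.244, 0.318, 0.146 and 0.126).

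Gcg and Gast had lower levels at 24 h than at 0.5 h on the arrays without BayK8644. Gcg stood at a log2 level of 9.59 with BayK8644 at 0.5 h and 9.58 at 24 h, while it stood at 9.59 with DMSO at 0.5 h and 9.08 at 24 h. With the combination Gcg stood at 9.63 and 9.72 at these times, and with Exendin-4 at 9.70 and 9.10. For Gast the log2 level with BayK8644 was 10.55 at 0.5 h and 11.36 at 24 h, and with DMSO it was 10.52 and 10.13. Sst differed, since its DMSO and Exendin-4 levels lay between 5.09 and 5.14 at all 4 times. Whether so even a level is signal or the background of the probe set was not tested. The 5.12-fold size of its rise may therefore depend on that background, though these levels are above log2 4.

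**Figure D4:**
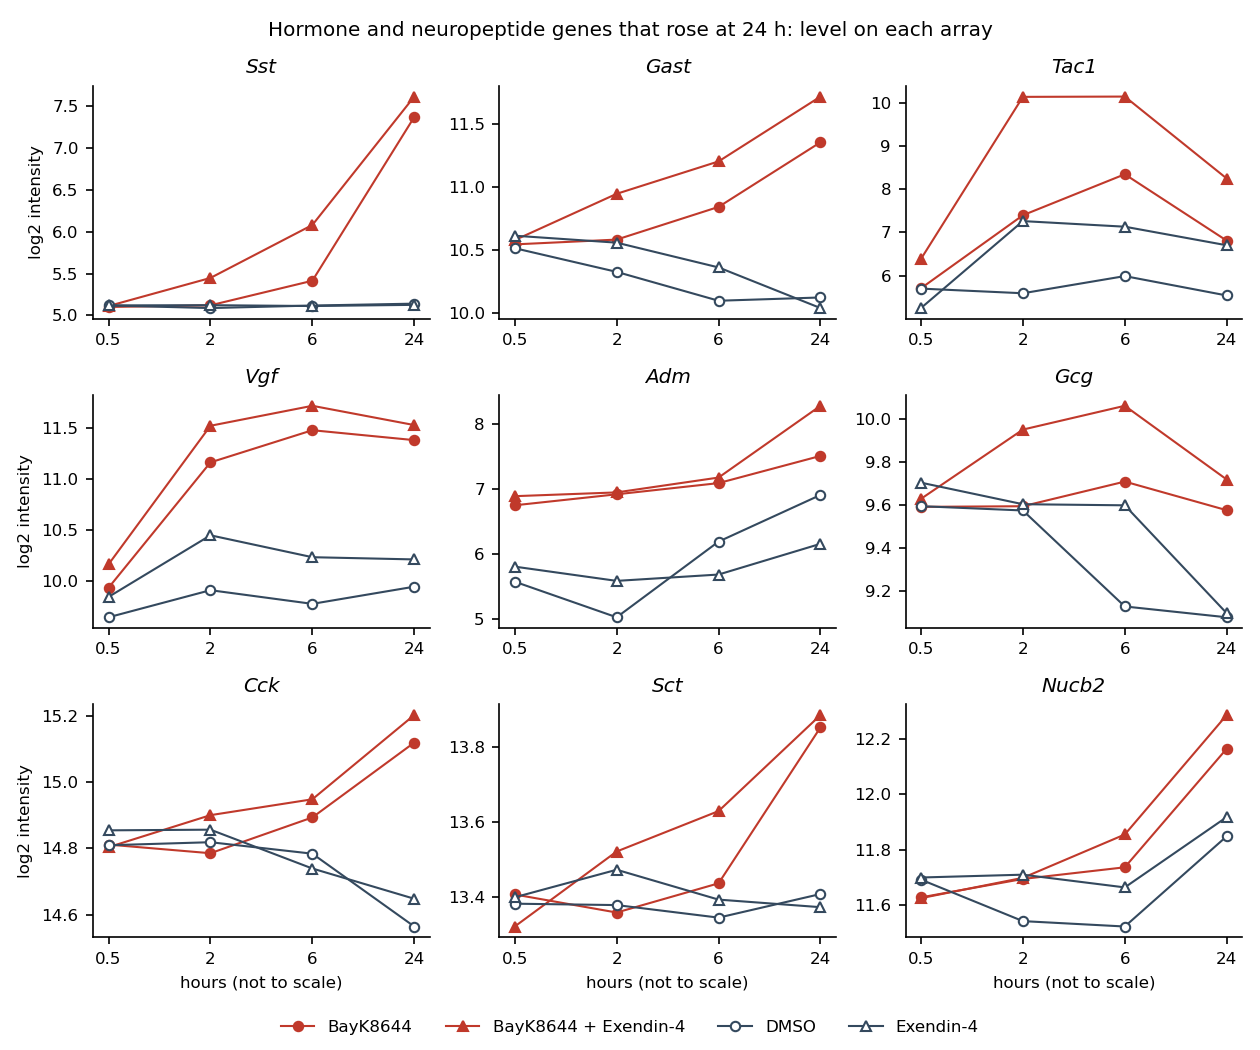
Lines join the log2 levels of single arrays at 0.5, 2, 6 and 24 h for the 9 hormone and neuropeptide genes that rose at 24 h, with BayK8644 (filled) and without it (open); each panel has its own scale. At 24 h both filled points lie above both open ones in every panel, as they do for all 317 genes called higher. The margin is widest for Sst.

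The promoters of these hormone genes are shown because Sst carries a textbook cyclic AMP response element (CRE), the site through which the calcium- and cyclic AMP-regulated factor CREB was first described. The sequences, read in the direction of the gene, are RefSeq windows of build GRCm38.p6, from 250 bases before to 50 bases after the annotated start, and 8 of the 9 genes had 1 (Vgf did not). Capitals mark the CRE, TGACGTCA, or its 5-base core, read as TGACG or CGTCA so that both strands are covered; the full site holds both cores. Npas4 is added as the activity-dependent factor with the largest rise.
Sst (chr16:23890795-23891094, minus strand): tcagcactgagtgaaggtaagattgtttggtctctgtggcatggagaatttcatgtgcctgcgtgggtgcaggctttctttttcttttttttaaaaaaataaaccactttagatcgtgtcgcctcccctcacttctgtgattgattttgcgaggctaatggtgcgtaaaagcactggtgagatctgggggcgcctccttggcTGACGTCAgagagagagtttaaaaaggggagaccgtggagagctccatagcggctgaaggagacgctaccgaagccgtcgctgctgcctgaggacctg
Cck (chr9:121495645-121495944, minus strand): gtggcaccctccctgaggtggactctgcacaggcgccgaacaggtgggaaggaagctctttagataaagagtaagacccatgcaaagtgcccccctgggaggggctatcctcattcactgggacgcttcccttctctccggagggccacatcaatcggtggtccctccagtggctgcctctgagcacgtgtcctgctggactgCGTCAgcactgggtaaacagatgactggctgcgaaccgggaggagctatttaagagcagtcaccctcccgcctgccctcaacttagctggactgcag
Tac1 (chr6:7554811-7555110, plus strand): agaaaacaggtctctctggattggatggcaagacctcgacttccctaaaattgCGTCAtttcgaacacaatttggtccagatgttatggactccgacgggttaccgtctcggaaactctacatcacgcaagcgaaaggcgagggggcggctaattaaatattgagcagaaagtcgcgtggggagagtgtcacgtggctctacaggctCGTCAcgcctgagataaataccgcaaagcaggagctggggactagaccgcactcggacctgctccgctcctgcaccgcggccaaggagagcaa
Npas4 (chr19:4989922-4990221, minus strand): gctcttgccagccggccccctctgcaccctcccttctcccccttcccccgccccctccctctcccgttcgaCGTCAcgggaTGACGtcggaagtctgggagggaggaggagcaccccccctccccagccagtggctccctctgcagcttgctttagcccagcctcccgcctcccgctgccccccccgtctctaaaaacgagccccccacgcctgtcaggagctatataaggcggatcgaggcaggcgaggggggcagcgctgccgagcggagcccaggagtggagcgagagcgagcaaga
The full CRE of Sst begins 48 bases before the start. Cores begin 47 bases before the start in Cck, 197 and 43 bases before it in Tac1, and 179 and 169 bases before it in Npas4. The windows of Gast, Gcg, Adm, Sct and Nucb2 held neither form. The full CRE was in 1.79% of all 32851 windows, and a core in 20.8%. By gene, the full CRE was in 7 of 261 that rose (2.68%), in 2 of 174 that fell (1.15%) and in 3.91% of the 8263 that passed in neither direction. A core was in 35.2% of those that rose, 29.9% of those that fell and 37.5% of the rest. A match in such a window is a run of letters and not a site shown to be bound.

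Of 37 tested genes of beta-cell identity and function 1 rose and 4 fell, and the median was -0.13. Nkx2-2, a homeodomain factor that beta cells need, had log2 levels of 12.28 with BayK8644 alone and 12.36 with the combination, against 12.92 with DMSO and 13.01 with Exendin-4. It fell by 0.64 ± 0.06 (adjusted p = 0.000499), and its sides did not overlap, as for 224 of the 225 genes called lower. Mlxipl, which encodes the glucose-responsive factor ChREBP, fell by 0.58 ± 0.13, the zinc-finger factor gene Myt1 by 0.39 ± 0.07 and Pcx, the gene of the mitochondrial enzyme pyruvate carboxylase, by 0.28 ± 0.07. Dlk1, a Notch-related protein of the endocrine pancreas, had log2 levels of 7.12 and 7.11 on the BayK8644 and combination arrays, against 6.10 and 5.80 on the DMSO and Exendin-4 arrays, a rise of 1.16 ± 0.15. Pdx1, the central factor of beta cells, had log2 levels of 13.37 with BayK8644 alone and 13.37 with the combination, against 13.37 with DMSO and 13.37 with Exendin-4, and its 4 values lay within 0.01 of each other. The differences of Nkx6-1 (-0.28), Neurod1 (-0.24), Pax6 (-0.24) and Slc2a2, the glucose transporter gene (0.54), did not pass. Nkx2-2 passed with either pair alone. Dlk1, Pcx, Myt1 and Mlxipl were lost (highest adjusted p 0.0632, 0.14, 0.0642 and 0.356).

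Of 19 genes that mature beta cells repress or lose, 6 rose and 0 fell, with a median of 0.16. Vim, the gene of the intermediate filament vimentin, had log2 levels of 11.26 and 11.19 on the BayK8644 and combination arrays, against 10.23 and 10.27 on the DMSO and Exendin-4 arrays, a rise of 0.97 ± 0.09 (adjusted p = 0.000499). Cxcl12, a chemokine gene, had log2 levels of 4.18 with BayK8644 alone and 5.15 with the combination, against 3.22 with DMSO and 3.18 with Exendin-4, with the arrays without BayK8644 under 4, and rose by 1.47 ± 0.29. With values under 4 set to 4 that rise no longer passed (limma, adjusted p = 0.0974). Igfbp4, an IGF-binding protein gene, rose by 0.57 ± 0.07 and Arap2 by 0.50 ± 0.12. Gast and Cck are the other 2. Cxcl12 and Arap2 were lost with at least 1 pair alone (highest adjusted p 0.261 and 0.163). The other 6 mesenchymal markers, among them Col1a1, Col1a2 and Pdgfrb, stayed under log2 4 on all 4 arrays beside the rise of Vim. The summed intensity of the 7 was 2494 and 2380 with BayK8644 and the combination, against 1252 and 1279 with DMSO and Exendin-4, nearly all of it Vim.

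Among 7 tested alpha, delta and PP cell markers, Sst and Gcg rose and Slc7a2, an amino acid transporter gene, fell by 0.45 ± 0.08 (highest adjusted p 0.118 with 1 pair alone). The median was 0.18. The summed intensity of the 3 alpha-cell markers, most of it Ttr, was 99896 and 95175 with BayK8644 and the combination, against 84211 and 88681 with DMSO and Exendin-4. Their part in the rise of Gcg was not tested. The delta-cell markers Hhex and Ghsr were under log2 4 on all 4 arrays, and Ppy was too. Rbp4, expressed in delta cells, had a difference of 0.18, and the alpha-cell factor gene Irx2 had log2 levels of 4.26 with BayK8644 alone and 4.20 with the combination, against 4.92 with DMSO and 4.82 with Exendin-4, and neither passed.

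Of 45 secretory granule and exocytosis genes tested 0 rose and 5 fell, with a median of 0.05. Sytl4, which encodes granuphilin, a docking protein of insulin granules, had log2 levels of 13.12 with BayK8644 alone and 13.20 with the combination, against 13.69 with DMSO and 13.74 with Exendin-4, a fall of 0.56 ± 0.05 (adjusted p = 0.000499). Doc2b, a calcium sensor of granule fusion, fell by 0.56 ± 0.10, and Cadps, a priming factor, by 0.45 ± 0.07. The vesicle protein gene Sv2b fell by 0.43 ± 0.09 and Syt13, of the synaptotagmin family, by 0.41 ± 0.07. For each of these both BayK8644 arrays lay below both others, as for 224 of the 225 genes called lower. The fusion proteins Snap25, Vamp2 and Stx1a had differences of -0.27, 0.01 and 0.02, and the granin genes Chga and Chgb of -0.19 and 0.21, none of which passed. Doc2b and Sv2b were lost with at least 1 pair alone (highest adjusted p 0.117 and 0.0859).

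The next list held genes of the unfolded protein response and of protein folding in the endoplasmic reticulum, where proinsulin is folded. It included 19 that rose and 0 that fell of 63 tested, with a median of 0.22. Fkbp11, a prolyl isomerase of the secretory pathway, had log2 levels of 10.04 and 10.61 on the BayK8644 and combination arrays, against 8.99 and 9.28 on the DMSO and Exendin-4 arrays, a rise of 1.20 ± 0.12 (adjusted p = 0.000701). Nupr1, a stress-induced nuclear protein gene, had log2 levels of 9.54 with BayK8644 alone and 9.86 with the combination, against 8.36 with DMSO and 8.73 with Exendin-4, a rise of 1.16 ± 0.16. Sdf2l1, a chaperone partner in the lumen, rose by 0.73 ± 0.12. The other 16 differed by between 0.26 for the translocon gene Sec61a1 and 0.56 for the co-chaperone gene Dnajb9. They included Ddit3, the gene of the stress factor CHOP (0.52 ± 0.07), the disulphide enzymes Ero1a (0.52), Pdia5 (0.49) and Pdia6 (0.37), and the secreted factors Manf (0.38) and Creld2 (0.30). Genes of protein entry into the lumen were Ssr2 (0.51), Ssr4 (0.37) and the signal peptidase subunit Spcs3 (0.40). Chac1 (0.43), Hyou1 (0.34), Dnajb11 (0.32), Vldlr (0.29) and Slc3a2 (0.26) complete the 19. With the mean of a gene's probe sets Ddit3 had a difference of 0.15 and did not pass (limma, adjusted p = 0.799). Ero1a, Pdia6, Ssr4, Hyou1, Vldlr and Sec61a1 did not pass with that mean either. The central chaperone gene Hspa5 had log2 levels of 15.37 and 15.41 on the BayK8644 and combination arrays, against 15.26 and 15.32 on the DMSO and Exendin-4 arrays, and the factors Xbp1 and Atf4 had differences of 0.24 and 0.29, none of which passed. Fkbp11 was the 1 of the 19 that passed with either pair alone, and the other 18 were lost, with a highest adjusted p between 0.056 and 0.327.

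The genes of G1/S, DNA replication, G2/M and mitosis that passed were lower with BayK8644, with 1 exception. Of 70 G2/M and mitosis genes tested, 0 rose and 11 fell, and the median was -0.19. A negative difference was found in 64 of the 70, against 5132 of all 10610 genes tested. Cdc25b, the phosphatase that activates CDK1, had log2 levels of 9.29 with BayK8644 alone and 9.37 with the combination, against 9.93 with DMSO and 9.83 with Exendin-4, a fall of 0.55 ± 0.09 (adjusted p = 0.0109). The mitotic kinase gene Aurkb fell by 0.49 ± 0.10, the separase gene Espl1 by 0.42 ± 0.09, and the spindle genes Prc1, Kif11 and Kif20a by 0.35, 0.33 and 0.31. The smallest of the 11 was Cdca3 (-0.29), with Ncapd2, Racgap1, Cdc20 and Cks2 at -0.32, -0.30, -0.30 and -0.29. Mki67, a marker of cycling cells, had log2 levels of 13.08 and 12.97 on the BayK8644 and combination arrays, against 13.11 and 13.39 on the DMSO and Exendin-4 arrays, and did not pass, nor did Cdk1 (0.02). Of 59 genes of G1/S and DNA replication 1 rose and 6 fell, with a median of -0.14. The 6 were E2f1 (-0.61 ± 0.11), the kinase gene Cdk2 (-0.52 ± 0.09), E2f7 (-0.50 ± 0.09), the DNA polymerase alpha gene Pola1 (-0.45 ± 0.06), Uhrf1 (-0.38 ± 0.07) and the histone mRNA binder Slbp (-0.27 ± 0.05). All 17 falls of both lists were lost with at least 1 pair alone, with a highest adjusted p between 0.0501 and 0.311.

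The exception was Ccnd2, which encodes cyclin D2, the D-type cyclin that beta cells use to enter the cycle. Its log2 levels were 13.50 with BayK8644 alone and 13.70 with the combination, against 12.68 with DMSO and 12.98 with Exendin-4, a rise of 0.77 ± 0.06 (1.7-fold, adjusted p = 0.000196). All 6 further probe sets of Ccnd2 above the filter level had a difference of the same sign, and the rise passed with either pair alone. Ccnd1 lay between 3.71 and 4.53 on the log2 scale on the 4 arrays, near the floor, and the difference of Ccnd3 was -0.21; neither passed.

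Of 40 cell cycle inhibitors and growth arrest genes, 2 rose and 6 fell, with a median of -0.10. Besides Gadd45a, Sesn3, a stress sensor gene that FOXO factors induce, had log2 levels of 11.56 and 11.53 on the BayK8644 and combination arrays, against 12.23 and 12.30 on the DMSO and Exendin-4 arrays, a fall of 0.72 ± 0.07 (adjusted p = 0.000556). Pik3ip1, an inhibitor of PI3 kinase, fell by 0.78 ± 0.18, Ccng2 by 0.46 ± 0.11 and Mxi1, an antagonist of Myc, by 0.45 ± 0.09, and Btg1 is the sixth. Gadd45b, a relative of Gadd45a, differed in direction, with a rise of 0.71 ± 0.13. Cdkn1a, the gene of the CDK inhibitor p21, rose by 0.34 ± 0.06. Gadd45a and Sesn3 passed with either pair alone, and the other 6 were lost, with a highest adjusted p between 0.0866 and 0.279.

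Growth factor signalling genes changed in both directions, with 4 rises and 5 falls among 43 tested and a median of -0.03. The metalloproteases Pappa2 and Pappa, which release IGF from its binding proteins, differed in direction. Pappa2 had log2 levels of 6.41 with BayK8644 alone and 7.12 with the combination, against 4.39 with DMSO and 5.38 with Exendin-4, a rise of 1.88 ± 0.17 (adjusted p = 0.000566). Pappa had log2 levels of 4.94 and 5.68 on the BayK8644 and combination arrays, against 6.48 and 6.54 on the DMSO and Exendin-4 arrays, a fall of 1.20 ± 0.24 (adjusted p = 0.024). Exendin-4 alone stood higher than DMSO for Pappa2, yet the lower array with BayK8644 exceeded both. Met, the receptor gene of hepatocyte growth factor, rose by 1.16 ± 0.18 and Bmp2, a growth factor gene, by 0.65 ± 0.11. Kit, the receptor gene of stem cell factor, had log2 levels of 8.55 with BayK8644 alone and 8.41 with the combination, against 9.25 with DMSO and 9.20 with Exendin-4, a fall of 0.74 ± 0.10. Deptor, an inhibitor of mTOR, fell by 0.70 ± 0.15 and the kinase gene Sgk1 by 0.68 ± 0.15. Npr2 is the fifth that fell, and Igfbp4 the fourth that rose. Igf1r, the receptor gene of IGF-1, lay between 4.08 and 4.21 on the 4 arrays, near the floor. Pappa, Met, Bmp2, Kit, Deptor and Sgk1 were lost with at least 1 pair alone (highest adjusted p between 0.0541 and 0.272).

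Signalling by G proteins and cyclic nucleotides had 4 rises and 8 falls among 54 genes tested, with a median of -0.06. Rgs4, which speeds the shut-off of Gq and Gi proteins, had log2 levels of 8.13 with BayK8644 alone and 8.24 with the combination, against 6.47 with DMSO and 5.34 with Exendin-4, a rise of 2.28 ± 0.39 (adjusted p = 0.0131). Exendin-4 alone was lowest, over 1 below DMSO. Npr2, the receptor of C-type natriuretic peptide that makes cyclic GMP, had log2 levels of 4.13 and 4.63 on the BayK8644 and combination arrays, against 5.35 and 5.86 on the DMSO and Exendin-4 arrays, a fall of 1.22 ± 0.15. The prostaglandin E receptor genes differed in direction: Ptger4, which couples to Gs, rose by 0.71 ± 0.14, and Ptger3, which couples mainly to Gi, fell by 0.71 ± 0.16. Among the phosphodiesterases Pde2a rose by 0.54 ± 0.13, while Pde4b, Pde1c and Pde3b fell by 0.50 ± 0.07, 0.40 ± 0.08 and 0.31 ± 0.06. Of the adenylyl cyclases Adcy2 rose by 0.54 ± 0.12 and Adcy6 fell by 0.40 ± 0.09. The protein kinase A subunit gene Prkar2b fell by 0.35 ± 0.06 and Rgs12 by 0.67 ± 0.14. Npr2 alone of these 12 passed with either pair alone, and the other 11 were lost, with a highest adjusted p between 0.0525 and 0.318.

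Of 22 cytokine and chemokine genes 4 rose and 1 fell, with a median of 0.06. Besides Il4 and Cxcl12, Tnfrsf12a, the receptor gene of TWEAK, rose by 0.82 ± 0.10, and Cxcl10, an interferon-induced chemokine gene, by 0.73 ± 0.14. Il1r1, the receptor gene of interleukin 1, had log2 levels of 10.31 with BayK8644 alone and 10.37 with the combination, against 10.92 with DMSO and 11.16 with Exendin-4, a fall of 0.70 ± 0.10. Beside the rises of Il4 and Gzmm the leukocyte markers Ptprc, Cd68, Cd3e and Itgam lay between log2 levels of 1.75 and 2.33 on all 4 arrays. The calls of Cxcl12, Cxcl10 and Il1r1 were lost with BayK8644 minus DMSO alone (highest adjusted p 0.261, 0.171 and 0.0899). Tnfrsf12a lay at the threshold there, with adjusted p-values of 0.0501 where the combination array was left out and 0.0493 where the Exendin-4 array was.

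Matrix, protease and adhesion genes held 2 rises and 6 falls among 37 tested, with a median of 0.03. Fn1, the fibronectin gene, had log2 levels of 7.75 with BayK8644 alone and 7.81 with the combination, against 8.61 with DMSO and 8.70 with Exendin-4, a fall of 0.87 ± 0.12 (adjusted p = 0.00519). Cldn1, a tight junction gene, had log2 levels of 10.58 and 10.60 on the BayK8644 and combination arrays, against 11.30 and 11.30 on the DMSO and Exendin-4 arrays, a fall of 0.71 ± 0.09. The cadherin genes Cdh22 and Cdh2 fell by 1.04 ± 0.20 and 0.27 ± 0.06, while Cdh4 rose by 0.63 ± 0.11. Adam19, a metalloprotease gene, fell by 0.93 ± 0.19, with both BayK8644 arrays under 4, and Sned1 is the sixth. Adamts5, an aggrecanase gene, had log2 levels of 4.07 and 3.90 with BayK8644 (alone and combined) and 2.91 and 2.69 without it (DMSO and Exendin-4), a rise of 1.18 ± 0.14 that passed with either pair alone. With values under 4 set to 4 neither Adam19 nor Adamts5 passed (limma, adjusted p = 0.163 and 0.894). Without the filter another probe set stood for Adamts5, and its difference was 0.006 and did not pass (limma, adjusted p = 0.997). The other 7 were lost (highest adjusted p between 0.0501 and 0.182).

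Glucose-sensing genes included Txnip, the strongly glucose-induced inhibitor of thioredoxin, with log2 levels of 8.80 with BayK8644 alone and 8.63 with the combination, against 9.51 with DMSO and 9.18 with Exendin-4, a fall of 0.63 ± 0.11. Pfkfb2, which sets the level of the glycolytic activator fructose-2,6-bisphosphate, fell by 0.54 ± 0.11, and Mlxipl and Pcx belong to the list as well. In all 1 of 38 rose (Adm) and 4 fell, with a median of 0.02. Each of the 5 was lost with at least 1 pair alone, Txnip at a highest adjusted p of 0.0627 and Pfkfb2 at 0.227.

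The times of onset were compared with the fit at earlier times. Of the 317 genes higher at 24 h, 131 had passed in the same direction at 6 h (1.71% of all genes tested passed as higher there), 76 at 2 h (1.15%) and 14 at 0.5 h (0.217%). Of the 225 lower at 24 h, 50 had passed in the same direction at 6 h (0.773%), 26 at 2 h (0.481%) and 0 at 0.5 h, where 0% of all genes passed as lower. The median difference of the 317 was 0.02, 0.20, 0.40 and 0.57 at 0.5, 2, 6 and 24 h, and that of the 225 was 0.03, -0.20, -0.26 and -0.45. They were chosen at 24 h, so the order of these medians is a description. The controls of each time were separate arrays.

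Between 24 h and 0.5 h the BayK8644 difference itself changed in 108 genes (1.02%), by limma's test of that change (adjusted p under 0.05), 64 in the positive and 44 in the negative direction. All 64 of the positive kind were among the genes higher at 24 h, and 30 of the negative kind were among those lower. The other 14 had positive differences at 0.5 h and smaller or negative ones at 24 h. Of these Fos had a log2 difference of 2.78 at 0.5 h and 0.56 at 24 h (adjusted p = 0.000317), and Egr1 of 2.87 and 0.92 (adjusted p = 0.00388). Nr4a1 and Ier2 are the other 2 of these that passed as higher at 24 h. Egr2, a zinc-finger factor gene, had 4.56 at 0.5 h and 0.12 at 24 h, where its levels were under 4 and it did not pass. Npas4 was not shown to change between these times, at 2.75 and 3.11 (adjusted p = 0.727). Some differences were near 0 at 6 h: that of Gzmm was under 0.01 in size at 6 h and 1.80 at 24 h, and that of Kcnip2 0.06 and 1.54. Both sizes at 24 h rest on values under 4 without BayK8644. Gzmm passed the filter only through its BayK8644 and combination arrays of 24 h. Sst had 0.63 at 6 h and 2.36 at 24 h, and Cox6a2 1.15 and 2.75. No gene passed for a change between 6 and 24 h in limma's fit (0%), with 484 at an unadjusted p under 0.05, and the lowest adjusted p was 0.199, that of Cox6a2 and Gzmm. The count of 108 was 756 without the BayK8644 array at 24 h and 758 without the DMSO array, and 67 when either the combination or the Exendin-4 array was left out.

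**Figure D5:**
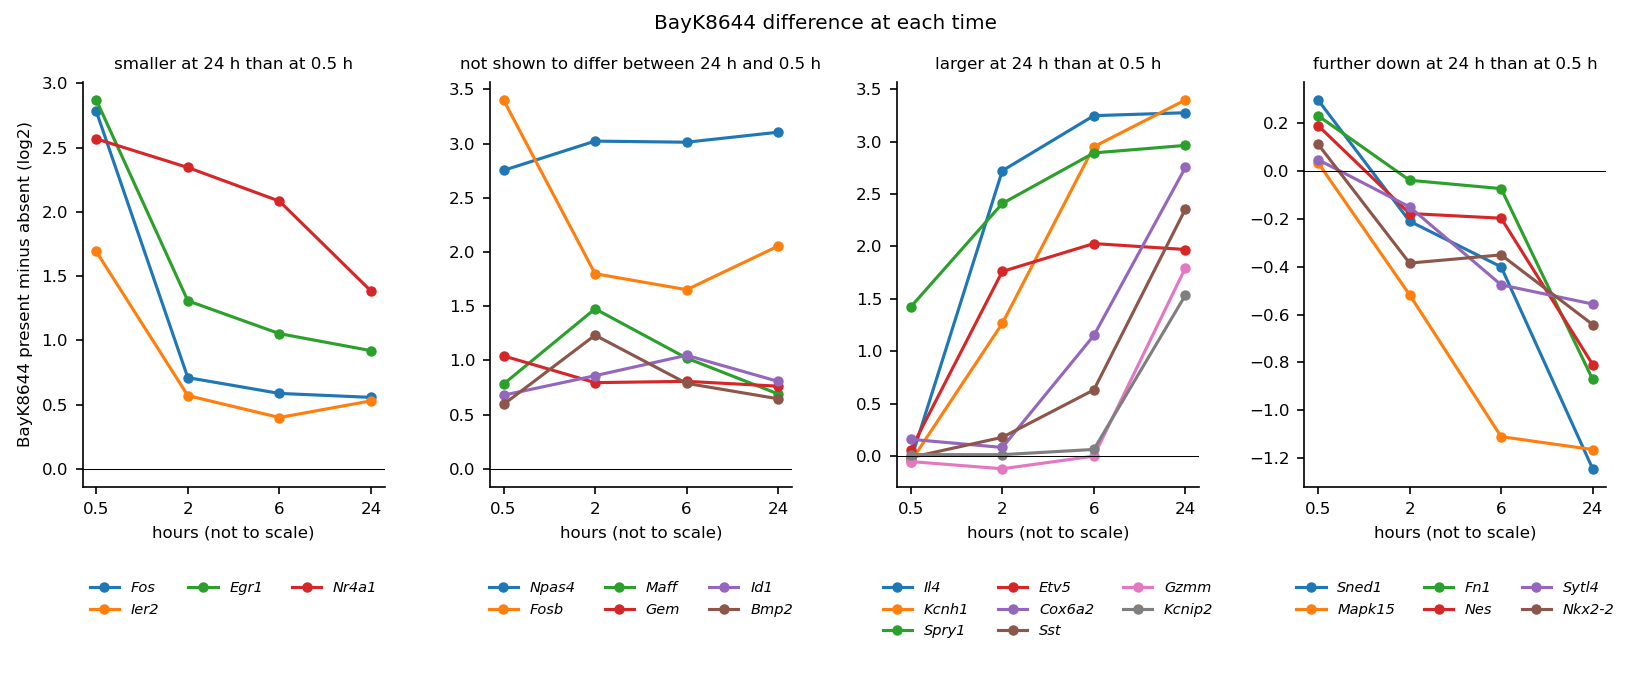
Lines join the log2 difference of BayK8644 present minus absent at 0.5, 2, 6 and 24 h for named genes, grouped by the test of 24 h against 0.5 h, with a scale for each panel. Fos and Egr1 are highest at 0.5 h, and Sst, Cox6a2, Gzmm and Kcnip2 climb mainly after 6 h.

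Whether the BayK8644 difference at 24 h depended on Exendin-4 was tested with a further term, whose error came from the other times. No gene passed (0%), with 1821 at an unadjusted p under 0.05 and a lowest adjusted p of 0.0908, so neither a dependence nor its absence was shown. Across genes the standard deviation of the difference was 0.36 with Exendin-4 and 0.27 without it. For single genes the pair stood as follows: Npas4 differed by 2.57 with Exendin-4 and 3.64 without it, Tmem212 by 3.63 and 2.38, and Rgs4 by 2.90 and 1.67. The pairs of Spry1 (2.99 and 2.94), Cox6a2 (2.74 and 2.77) and Ccnd2 (0.72 and 0.82) were closer.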

How the data were processed

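The deposited values are GCRMA intensities on a linear scale, per the submitters' processing notes and the values in the file, for 45101 probe sets on 16 arrays (Affymetrix mouse design). These deposited intensities were converted to log2 without a pseudocount and not normalized again. The GCRMA version was not given in the sources used here, and the number of arrays limits the precision. Probe sets with 1 gene symbol in the platform annotation that reached log2 4 on at least 2 of 16 arrays were kept, the one with the highest mean standing for its gene. This left 10610 genes. Some, such as Kcnh1, Etv4, Qpct, Cd274, Cmtm8 and Gzmm, passed this filter only through arrays with BayK8644. Among the 542 called, 257 had further probe sets, and in 29 of these at least 1 differed in sign. Both arrays without BayK8644 were under log2 4 for 18 of the called rises, and both with it for 1 of the called falls.

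The fit used limma 3.58.1 in R 4.3.3 (lmFit, then eBayes with an intensity trend) on all 16 arrays, with terms for time and for each agent within time and 4 residual degrees of freedom. With 1 array per treatment and time, the error is the departure from additivity of the agents, pooled over times. Benjamini-Hochberg adjustment ran over all 10610 genes. Named genes are the 25 largest called rises and falls and the called members of 25 lists, plus some members that did not pass. The arrays, lists and rules were chosen with earlier results of these data known. Promoters came from RefSeq, GRCm38.p6. The alternatives were other filters, probe-set rules, a floor, variance models, median centring, and leaving out arrays or times. Figures were drawn with matplotlib 3.10.9.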

Additional observations from a re-analysis of the deposited data

Results flagged for a closer look

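The BayK8644 difference at 24 h itself differed from that at 0.5 h in 108 genes, by limma's test of the change, and 25 of the 50 genes that make up the 25 largest rises and the 25 largest falls were among them. Those 50 were chosen on their difference at 24 h, which favours a change from 0.5 h. The change in log2 difference, 24 h minus 0.5 h, was 3.45 for Kcnh1, 3.31 for Il4, 3.11 for Tmem212, 2.59 for Cox6a2 and 2.37 for Sst. It was 2.07 for Spry4, 2.04 for Cmtm8, 1.96 for Qpct, 1.95 for Cd274, 1.91 for Etv5 and 1.86 for Pappa2. For Gzmm, Epas1, Rtp4, Spry1 and Dusp4 it was 1.85, 1.67, 1.54, 1.54 and 1.16. The sizes for Kcnh1, Il4, Cmtm8, Qpct, Cd274, Gzmm and Epas1 rest on 24 h levels under log2 4 without BayK8644. Kcnh1, Cmtm8, Qpct, Cd274 and Gzmm passed the filter only through arrays with BayK8644. With values under 4 set to 4, the 24 h difference was 0.52 for Gzmm and 0.16 for Cmtm8, which no longer passed. Genes that fell by 24 h had negative changes, of -1.54 for Sned1, -1.20 for Mapk15, -1.10 for Fn1, -1.09 for Trim62 and -1.07 for Zfp185. The changes of Nes, Dtna, Tox3 and Gadd45a were -1.0, -0.91, -0.87 and -0.71. Groups held 1 array each, so no array could be tested as standing apart from its group.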

How the results depend on the processing

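No paired analysis was possible because the labels carry no replicate numbers and each treatment and time had 1 array. The 5 counts below are of genes higher (317), genes lower (225), and genes whose difference changed from 6 h (0), changed from 0.5 h (108) or departed with Exendin-4 (0). Without a filter, 140 genes were lower, 8 changed from 6 h and 198 departed with Exendin-4. With all probe sets 57 changed from 0.5 h, and with the mean of a gene's probe sets 64 did and 136 were lower. With values under log2 4 set to 4, 1 departed with Exendin-4. Without the eBayes trend 204 were higher, 117 lower and 65 changed from 0.5 h. With weights by time 92 were higher and 27 lower, and with the 24 h arrays alone 65 and 13. Without Exendin-4 terms 1 gene changed from 6 h. Without the arrays of 0.5 h 175 were higher and 99 lower, without those of 2 h 6 departed with Exendin-4, and without those of 6 h 138 were lower and 64 changed from 0.5 h. Without single 24 h arrays, which leaves 1 pair, between 64 and 1083 genes were higher, between 52 and 384 lower, and between 67 and 758 changed from 0.5 h, while 0 changed from 6 h each time. With a filter at log2 6 and with centring on the median every count stayed within 1.5 times the main one. No named gene reversed its direction in any setting run, but many settings could not show a reversal. The rule of 1 sign fixed the direction in the fits without 1 of the 24 h arrays. Other variance models, no Exendin-4 terms and leaving out other times kept the 24 h difference as it was. Of 170 named genes 50 passed in all 4 fits without 1 of the 24 h arrays, and 36 in every setting. Signal near the floor limits the sizes of rises from under log2 4, and genes under the filter were not tested.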

Other observations

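The lists not described above follow, to be read against the background of 2.99% of all genes tested that rose and 2.12% that fell. Of 33 sterol genes tested 3 rose and 1 fell, with a median of 0.10: Tm7sf2, a sterol reductase gene, rose by 0.70 ± 0.16, the isoprenoid isomerase gene Idi1 by 0.47 ± 0.10 and Cyp51, a sterol demethylase gene, by 0.30 ± 0.07, while Acly, the enzyme gene that makes cytosolic acetyl-CoA, fell by 0.26 ± 0.05. Abca1, the cholesterol exporter gene, had log2 levels of 8.20 with BayK8644 alone and 8.52 with the combination, against 8.79 with DMSO and 9.09 with Exendin-4, and did not pass. Among 28 apoptosis and survival genes Bcl2, an inhibitor of apoptosis, rose by 0.80 ± 0.19 beside Ddit3, and the caspase gene Casp2 fell by 0.48 ± 0.08, with a median of 0.04. Of 19 clock genes Rora, a nuclear receptor gene, fell by 0.50 ± 0.11 and the kinase gene Csnk1d by 0.28 ± 0.06, with 0 rises and a median of -0.06. Of 42 axon guidance and synapse genes Sema7a, a membrane-bound semaphorin gene, rose by 0.69 ± 0.14, 0 fell and the median was -0.09. All of these calls were lost with at least 1 pair alone, with a highest adjusted p between 0.0575 and 0.393.

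Of 33 cilium genes, Tmem212 rose and Mapk15 fell, both also with either pair alone, and the median was -0.11. Of the others, Rsph1, a radial spoke gene, and Dnaic1, a dynein gene, had differences of 0.47 and -0.35 and did not pass. Of 3 tested acinar and duct markers 0 changed (median 0.18), and of the mesenchymal, endothelial and leukocyte markers only Vim could be tested, with its rise of 0.97. Krt7, a duct keratin gene, had log2 levels of 8.84 and 9.32 on the BayK8644 and combination arrays, against 8.72 and 8.48 on the DMSO and Exendin-4 arrays. Cela1, an elastase gene, had log2 levels of 9.51 and 9.60 with BayK8644 (alone and combined) and 9.53 and 9.22 without it (DMSO and Exendin-4). Neither passed.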
